A study of Mus musculus with 4 samples.

Results

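The MYC, MAX and MXD network was followed through RNA sequencing of Jurkat, a line of human leukaemic T cells. Its 9 genes, MYC, MYCN, MAX, MXD1, MXI1, MXD3, MXD4, MNT and PVT1, were chosen by gene symbol, with earlier results of these data known. All 9 were found among the 58735 gene rows of the deposited count table, and all 9 passed the filter on low counts, which left 15294 genes for testing. The study compared 2 libraries labelled MATR3 knockout, made with CRISPR-Cas9, with 2 wild-type libraries. MATR3 encodes the nuclear RNA-binding protein matrin 3. By their labels, both groups were of the same cell line under the same culture conditions, with 10% fetal bovine serum and 5% CO2. The labels do not say whether the knockout was a single clone or a pool, nor whether replicate libraries were grown apart. The spread behind each p-value may therefore be technical.

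MYC is a basic helix-loop-helix leucine zipper transcription factor that binds DNA as a dimer with MAX and raises the transcription of genes for ribosome production, nucleotide synthesis and cell growth. MAX also dimerises with the MXD proteins, with MXI1, which belongs to the MXD family, and with MNT, and these dimers bind the same sites and recruit SIN3 and histone deacetylases as corepressors. In T cell leukaemia, MYC is a well known target of NOTCH1, and MXD1 is known to rise when myeloid and other cells differentiate. PVT1 is a long non-coding RNA gene next to MYC.

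Features of the libraries are given here. Some, such as high myeloid markers in those labelled knockout, went against their label as T cells. Total counts were 15008554 and 15022788 in the libraries labelled knockout, against 17477643 and 15400214 in wild-type. The MATR3 row that could be tested (ENSG00000015479) held 42 and 61 reads in the libraries labelled knockout, against 19 and 9 in wild-type. A second, overlapping MATR3 row held 2 and 2 reads in the libraries labelled knockout, against 5 and 1 in wild-type. Reads in the part that both rows share may have been assigned to neither, and neither row can serve as a check of the knockout. The summed level of 18 myeloid marker genes was 6322 and 6189 CPM (read counts scaled to sequencing depth) in the libraries labelled knockout, against 241.5 and 244.6 CPM in wild-type. Most of the sum in the libraries labelled knockout came from MPO, with 4972 and 4867 CPM there against 8.50 and 9.36 CPM in wild-type. LYZ had only 2.32 and 2.83 CPM in the libraries labelled knockout. Of the 17 myeloid markers tested, 16 were higher and 0 lower. AIF1 did not pass, and CD14 was too low to test. None of the 18 was at 0 in the libraries labelled knockout, and 3 were at 0 in both wild-type libraries. T cell markers were present in all 4 libraries, and their summed level over 15 genes was 1555 and 1513 CPM in the libraries labelled knockout, against 3834 and 3567 CPM in wild-type. All 15 were tested, of which 0 were higher and 14 lower, and TRAC did not pass. Epithelial markers summed to 130.0 and 130.5 CPM in the libraries labelled knockout, against 14.0 and 11.8 CPM in wild-type. EPCAM, KRT19 and AFP were at 0 in all 4. The 4 epithelial markers tested, KRT8, KRT18, CLDN4 and SERPINA1, were all higher. KRT18 had 87.3 and 85.3 CPM in the libraries labelled knockout, against 3.90 and 3.52 CPM in wild-type. Fibroblast markers summed to 57.4 and 58.7 CPM in the libraries labelled knockout, against 157.6 and 151.0 CPM in wild-type. COL1A2, COL3A1, DCN and PDGFRA were at 0 in all 4, and of 3 fibroblast markers tested 0 were higher and 2 lower. B cell, natural killer cell and erythroid or megakaryocyte markers summed to at most 48.6 CPM in any library. MS4A1, IGHM, KLRF1, FCGR3A and HBB were among those at 0 in all 4. Of the 4 B cell markers tested, PAX5 and BLNK were higher and CD79A and SPIB lower. PAX5 had 53 and 32 reads in the libraries labelled knockout, against 0 and 0 in wild-type. Of 3 natural killer cell markers tested, 1 was higher and 1 lower, and of 2 erythroid or megakaryocyte markers 0 passed. Among all tested genes, 33.7% were higher and 32.3% lower. Mitochondrially encoded genes held 9.49% and 9.33% of all reads in the libraries labelled knockout, against 5.31% and 4.92% in wild-type. These differences ran between the same 2 groups as every comparison given here, and their part in the results was not tested. In bulk RNA, fewer cells of a type and less RNA per cell cannot be told apart.

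MYC, MXD1, MXI1 and PVT1 were higher in the libraries labelled knockout, MYCN, MAX and MXD4 were lower, and MXD3 and MNT did not pass the test. MXD1 had the largest change of the 9 in either direction and MYCN the largest fall. The 4 higher and 3 lower genes were counted at an adjusted p under 0.05 in edgeR's quasi-likelihood test, where 66.0% of all tested genes passed, 33.7% higher and 32.3% lower. For each of the 9 genes, the range of the libraries labelled knockout did not overlap that of wild-type, which also held for 82.0% of all tested genes. The median log2 fold change over the 9 was 0.21, against 0.02 over all tested genes. A share of 7 in 9 lies near the share called in the whole transcriptome, so the network is described here gene by gene. Log2 fold changes are of the libraries labelled knockout over wild-type, and standard errors (SE) are those of the log2 fold change.

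**Figure D1:**
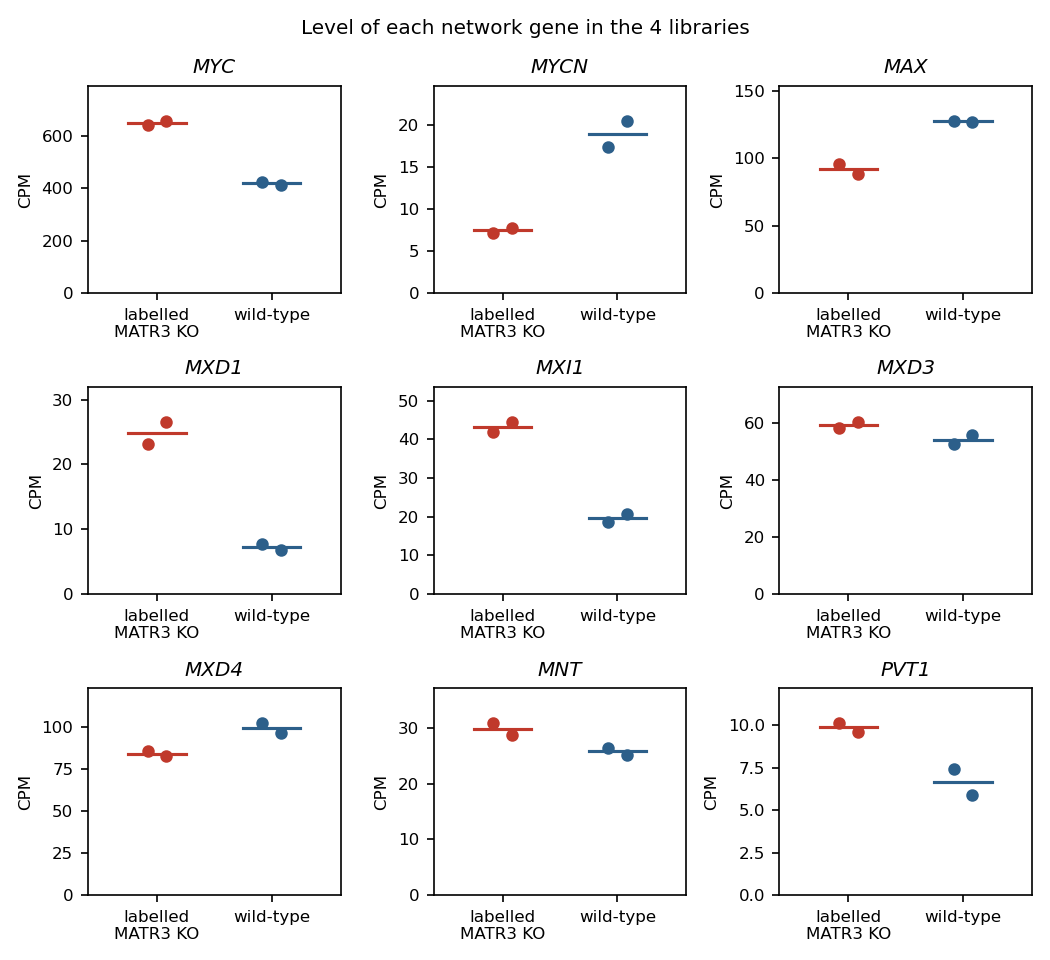
Each panel shows 1 gene, with the level in CPM on a linear axis from 0, a point for each of the 2 libraries of a group, and a bar at the group mean. The groups are apart in every panel, with a gap that is wide for MXD1 (24.9 CPM labelled knockout, 7.27 CPM wild-type) and narrow for MXD3 (59.1 CPM labelled knockout, 54.0 CPM wild-type).

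MYC (ENSG00000136997, chromosome 8, 127735434 to 127741434, plus strand, protein-coding, on a genome build that the sources used here do not name) was the most abundant gene of the network. It had 642.9 and 658.3 CPM in the libraries labelled knockout, against 425.4 and 412.5 CPM in wild-type. Every library labelled knockout lay above both wild-type libraries, and replicates differed little, with a coefficient of variation of 1.67% in the libraries labelled knockout and 2.17% in wild-type. The ratio of the group means was 1.55 and the log2 fold change 0.63 (SE 0.07, edgeR adjusted p = 7.61e-13). The underlying reads were 9424 and 9763 in the libraries labelled knockout, against 7410 and 6568 in wild-type, which is 6.28 and 6.50 reads per 10000 counts in the libraries labelled knockout and 4.24 and 4.27 in wild-type. Divided by the deposited gene length and by the scaled depth (RPKM), MYC averaged 216.8 ± 3.62 in the libraries labelled knockout and 139.6 ± 3.03 in wild-type (SD, n = 2 each). It ranked 158 of 15294 tested genes on that scale in the libraries labelled knockout and 297 in wild-type. The deposited length need not be that of the transcripts present here, so ratios, shares and ranks between genes are approximate.

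MYCN (ENSG00000134323, chromosome 2, 15940564 to 15947007, plus strand), the paralogue best known from neuroblastoma, moved the other way. Its levels were 7.16 and 7.75 CPM in the libraries labelled knockout, against 17.4 and 20.5 CPM in wild-type. Both libraries labelled knockout were below both wild-type libraries, at 0.394 of the wild-type mean, with a log2 fold change of -1.34 (SE 0.17, edgeR adjusted p = 2.01e-10). The row overlaps the antisense gene MYCNOS over 1686 bases, which was itself lower, with 4 and 6 reads in the libraries labelled knockout against 36 and 19 in wild-type. Without a stated strand setting, reads of the 2 genes in the shared part cannot be told apart.

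MYCL, the third paralogue, is not among the 9 genes but completes the MYC family. It stood at 7.23 and 6.34 CPM in the libraries labelled knockout, against 16.0 and 15.6 CPM in wild-type (log2 fold change -1.22, SE 0.18, edgeR adjusted p = 1.28e-08). Of the summed RPKM of the 3 paralogues, MYC made up 98.1% in each library labelled knockout, against 93.5% and 92.6% in wild-type. The share of MYCN was 1.26% and 1.33% in the libraries labelled knockout, against 4.41% and 5.30% in wild-type. The sum itself was 218.4 and 223.6 RPKM in the libraries labelled knockout, against 151.6 and 148.4 RPKM in wild-type, so the MYC family as a whole was higher in the libraries labelled knockout although 2 of its 3 genes were lower.

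MAX (ENSG00000125952, chromosome 14, 65006174 to 65102695, minus strand), the shared dimerisation partner, was lower. It had 95.6 and 88.0 CPM in the libraries labelled knockout, against 128.0 and 126.7 CPM in wild-type. The groups did not overlap, and the gap was several times the difference between replicates. The log2 fold change was -0.47 (SE 0.08, edgeR adjusted p = 1.19e-07), at 0.721 of the wild-type mean. Its row overlaps the oppositely oriented FNTB, a farnesyltransferase subunit gene, over 56479 bases, and FNTB was also lower, with 155 and 143 reads in the libraries labelled knockout against 274 and 254 in wild-type. Within a library, where scaling plays no part, the ratio of MYC to MAX in RPKM was 9.92 and 11.04 in the libraries labelled knockout, against 4.91 and 4.81 in wild-type. Transcript ratios say nothing of how much of each protein was present or dimerised.

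**Figure D2:**
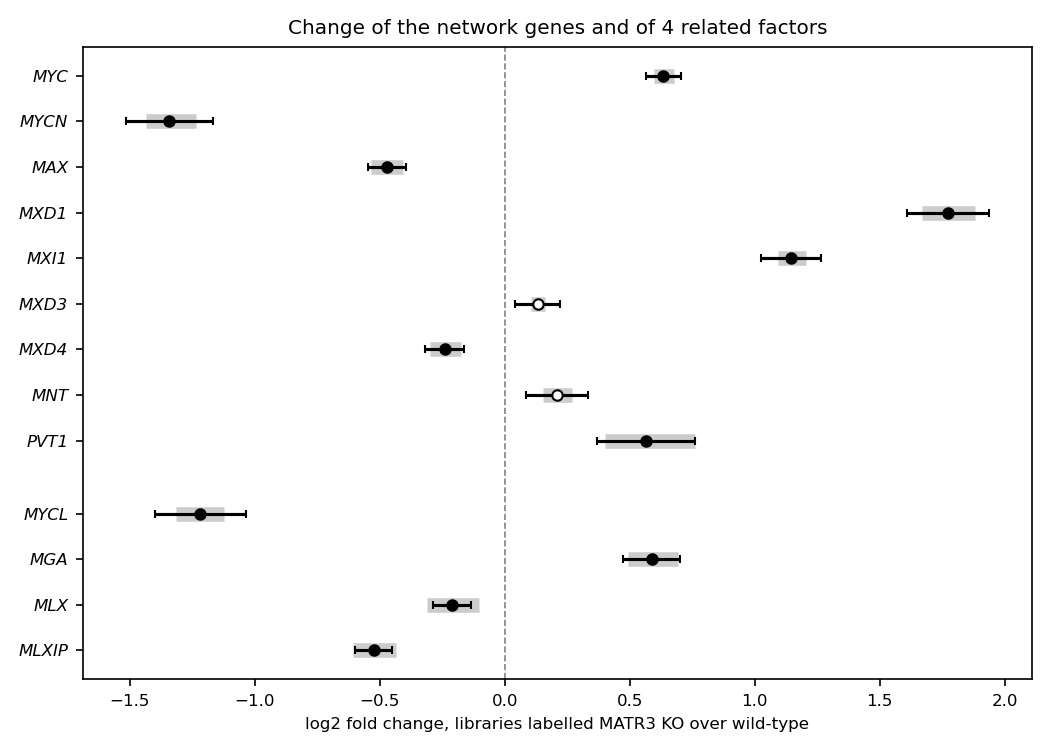
Points give the log2 fold change of the libraries labelled MATR3 knockout over wild-type with its SE, filled where the edgeR adjusted p was under 0.05, and grey bands span the values found when each library in turn was left out. MXD1 at 1.77 and MXI1 at 1.15 lie farthest right and MYCN at -1.34 and MYCL at -1.22 farthest left, and the related factors MYCL, MGA, MLX and MLXIP are drawn below the 9 network genes.

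Among the MAX partners that act as repressors, MXD1 and MXI1 were higher. MXD1 (ENSG00000059728, chromosome 2, 69897688 to 69942945, plus strand), also called MAD1, had 23.1 and 26.6 CPM in the libraries labelled knockout, against 7.69 and 6.85 CPM in wild-type. Its level was 3.42 times that of wild-type, with a log2 fold change of 1.77 (SE 0.16, edgeR adjusted p = 6.84e-16). The row overlaps the same-strand spliceosome gene SNRNP27 over 7888 bases, and SNRNP27 did not pass the test, with 297 and 325 reads in the libraries labelled knockout against 335 and 350 in wild-type.

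MXI1 (ENSG00000119950, chromosome 10, 110207605 to 110287365, plus strand), also known as MXD2, had 42.0 and 44.6 CPM in the libraries labelled knockout, against 18.6 and 20.6 CPM in wild-type. This was a ratio of 2.21 and a log2 fold change of 1.15 (SE 0.12, edgeR adjusted p = 1.54e-13). No gene with reads overlaps the row. MXD1 and MXI1 were thus the members whose libraries lay farthest apart in the upward direction, each by more than 2-fold.

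MXD4 (ENSG00000123933, chromosome 4, 2247432 to 2262294, minus strand) had the highest RPKM of the repressors in both groups. In the libraries labelled knockout its lead was narrow, at 12.12 and 11.75 RPKM against 11.24 and 11.71 RPKM for MXD3. The MXD3 row overlaps other genes with reads, so that rank is not secure. MXD4 was slightly lower in the libraries labelled knockout, with 85.5 and 82.9 CPM there against 102.7 and 96.3 CPM in wild-type. The groups did not overlap, and the log2 fold change was -0.24 (SE 0.08, edgeR adjusted p = 0.00539). This call was lost when replicate 1 labelled knockout (edgeR adjusted p = 0.0801) or replicate 2 labelled knockout (edgeR adjusted p = 0.166) was left out, with log2 fold changes of -0.26 and -0.21.

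MXD3 (ENSG00000213347, chromosome 5, 177301461 to 177312757, minus strand), a family member linked to dividing cells, had 57.9 and 60.3 CPM in the libraries labelled knockout, against 52.5 and 55.5 CPM in wild-type. The groups did not overlap, but the difference did not pass the test (log2 fold change 0.13, SE 0.09, edgeR adjusted p = 0.191). Its row overlaps PRELID1 on the opposite strand, with 3455 and 3577 reads in the libraries labelled knockout against 5243 and 4119 in wild-type, and RAB24 on the same strand, so its level is uncertain.

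MNT (ENSG00000070444, chromosome 17, 2384060 to 2401118, minus strand), a MAX partner expressed in most cell types, had 31.0 and 28.7 CPM in the libraries labelled knockout, against 26.5 and 25.2 CPM in wild-type. It did not pass the test (log2 fold change 0.21, SE 0.12, edgeR adjusted p = 0.132). These misses do not show that MXD3 and MNT were at equal levels.

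The make-up of the repressors differed between the groups. On the RPKM scale, MXD1 and MXI1 together with MXD3, MXD4 and MNT summed to 39.7 and 40.6 in the libraries labelled knockout, against 33.0 and 32.9 in wild-type. MXD1 was 9.18% and 10.3% of that sum in the libraries labelled knockout, against 3.67% and 3.28% in wild-type, and MXI1 was 23.0% and 23.8% in the libraries labelled knockout, against 12.2% and 13.6% in wild-type. The share of MXD4 was 30.6% and 28.9% in the libraries labelled knockout, against 44.1% and 41.5% in wild-type. MXD3 stood at 28.3% and 28.8% in the libraries labelled knockout, against 30.8% and 32.8% in wild-type, and MNT at 8.96% and 8.10% in the libraries labelled knockout, against 9.19% and 8.78% in wild-type. Of these 5 genes, only MNT had shares that overlapped between the groups. MXD4 exceeded MXD1 in RPKM by 3.33 and 2.80 times in the libraries labelled knockout, against 12.01 and 12.66 times in wild-type. The MXD1 and MXD3 rows overlap other genes with reads, so the sum, the shares and this ratio are uncertain to that extent.

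Set against MAX, the repressor sum was 1.84 and 2.05 times the MAX level in the libraries labelled knockout, against 1.14 and 1.15 times in wild-type. MYC was 5.40 times the repressor sum in each library labelled knockout, against 4.29 and 4.18 times in wild-type. The repressor sum was thus higher relative to MAX and lower relative to MYC in the libraries labelled knockout. Both comparisons share the uncertainty of the overlapping MXD1 and MXD3 rows, and the first also that of the MAX row, which overlaps FNTB. These ratios were taken within each library and were not tested, and an exact permutation test of 2 libraries against 2 cannot give a p below 0.333.

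**Figure D3:**
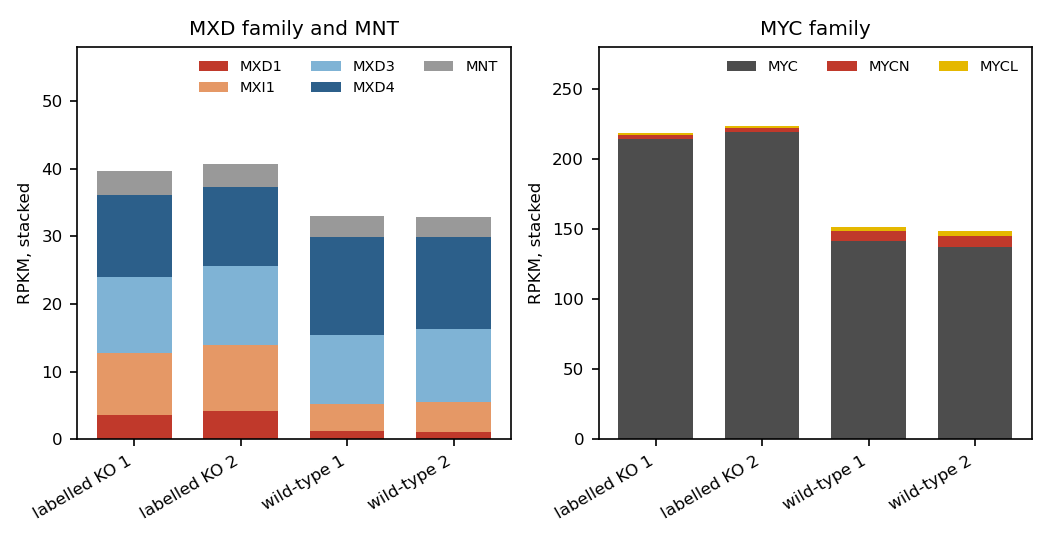
Stacked bars give the RPKM of the repressors MXD1, MXI1, MXD3, MXD4 and MNT (left panel) and of MYC, MYCN and MYCL (right panel) in each of the 4 libraries, on linear axes from 0. The MXD1 and MXI1 blocks are taller in the libraries labelled knockout while the MXD4 block is shorter, and MYC fills at least 92.6% of each bar in the right panel.

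PVT1 (ENSG00000249859, chromosome 8, 127794533 to 128101253, plus strand, lincRNA) was detected at a low level in all libraries. It had 10.2 and 9.57 CPM in the libraries labelled knockout, against 7.41 and 5.90 CPM in wild-type, from 149 and 142 reads in the libraries labelled knockout and 129 and 94 in wild-type. The log2 fold change was 0.56 (SE 0.20, edgeR adjusted p = 0.00962). This call was lost without wild-type replicate 2 (log2 fold change 0.40, edgeR adjusted p = 0.0864), without replicate 1 labelled knockout (0.52, edgeR adjusted p = 0.0978) and in the DESeq2 Wald test (0.57, adjusted p = 0.0557). In RPKM, PVT1 stood at 0.864% and 0.795% of MYC in the libraries labelled knockout, against 0.951% and 0.782% in wild-type, and these ranges overlapped. The hosted microRNA rows MIR1204, MIR1205, MIR1206 and MIR1207 held 0 reads in all 4 libraries, and the labels name no selection of small RNA.

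Ordered by RPKM, the libraries labelled knockout ran MYC (216.8), MAX (20.7), MXD4 (11.9), MXD3 (11.5), MXI1 (9.41), MXD1 (3.92), MNT (3.42), MYCN (2.87) and PVT1 (1.797). The order in wild-type was MYC (139.6), MAX (28.7), MXD4 (14.1), MXD3 (10.5), MYCN (7.28), MXI1 (4.25), MNT (2.96), PVT1 (1.21) and MXD1 (1.15). PVT1 and MXD1 in wild-type were the only neighbours in either order whose replicate ranges overlapped. MXD4 and MXD3 lay close in the libraries labelled knockout, where their order is not secure because the MXD3 row overlaps other genes. MXD1 took place 6 in the libraries labelled knockout and place 9 in wild-type, and MYCN place 8 in the libraries labelled knockout and place 5 in wild-type.

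The genes around MYC were followed by position. Of 48 rows whose midpoint lies within 2 Mb of that of MYC, 21 had any reads and 8 were tested, MYC and PVT1 included, of which 5 were higher and 1 lower, beside the 33.7% and 32.3% of all tested genes. The DESeq2 Wald test called 3 higher and 1 lower. Within 1 Mb, all 3 tested genes (MYC, PVT1 and CASC11) were higher, and within 5 Mb 15 of 36 were higher and 12 lower. Without MYC and PVT1, 3 of 6 tested genes were higher and 1 lower within 2 Mb. Within 5 Mb, 13 of 34 were then higher and 12 lower (38.2% and 35.3%), with a median log2 fold change of -0.03. CASC11, a long non-coding RNA gene on the opposite strand, runs from 127686343 to 127733967, just upstream of MYC, which starts at 127735434. Their midpoints lie 28.3 kb apart. CASC11 had 53 and 59 reads in the libraries labelled knockout, against 1 and 0 in wild-type. The ratio of its summed reads, scaled for depth, was 126.6 with an exact conditional 95% interval of 22.3 to 5046, which covers counting error only (edgeR adjusted p = 5.71e-14). At 3.62 and 3.98 CPM it stayed far below MYC, and it does not overlap MYC. LINC00861 had 24 and 29 reads in the libraries labelled knockout against 4 and 1 in wild-type (log2 fold change 3.52, SE 0.63, edgeR adjusted p = 1.10e-06).

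AC087667.1 was also higher (2.18, SE 0.73, edgeR adjusted p = 0.00714), from 10 and 15 reads in the libraries labelled knockout against 0 and 6 in wild-type, but not without wild-type replicate 1 (1.17, edgeR adjusted p = 0.231), without replicate 2 labelled knockout (1.87, edgeR adjusted p = 0.174), in the DESeq2 Wald test (2.21, adjusted p = 0.104) or with no expression filter (2.18, edgeR adjusted p = 0.0819). Without wild-type replicate 2 its fitted value was 6.74, against a lone wild-type library at 0 reads, and such a value is no bound. AC011257.1 was lower (-2.14, SE 0.41, edgeR adjusted p = 3.85e-06), and it overlaps CCDC26, which did not pass the test. FAM84B, the only tested protein-coding gene of the window besides MYC, had 7.57 and 6.94 CPM in the libraries labelled knockout, against 5.34 and 5.97 CPM in wild-type, and did not pass (log2 fold change 0.36, SE 0.21, edgeR adjusted p = 0.126).

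**Figure D4:**
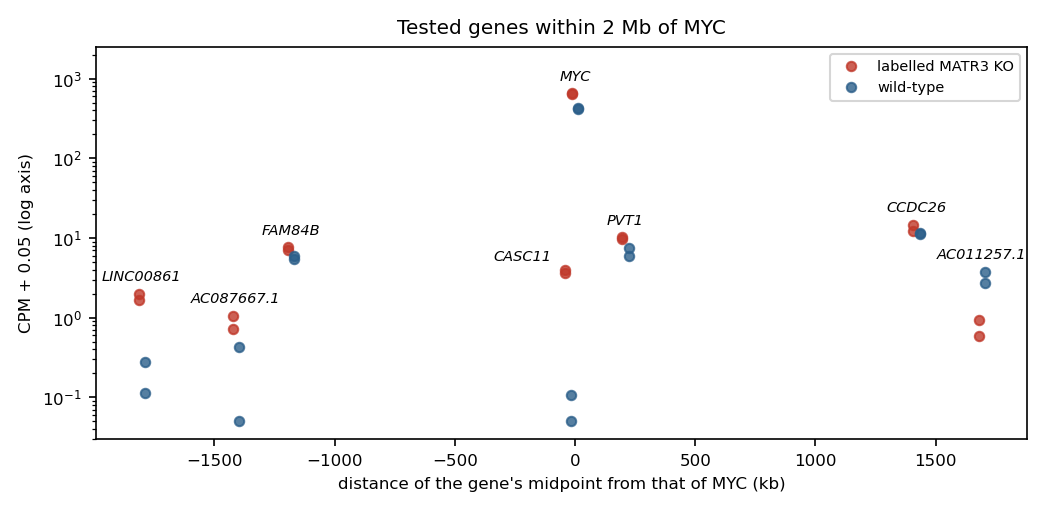
The 8 tested genes within 2 Mb of MYC are placed by the distance of their midpoint from that of MYC in kb, with 1 point per library and the level as CPM + 0.05 on a log axis. MYC lies more than 10 times above every neighbour, and CASC11 is at 3.62 and 3.98 CPM in the libraries labelled knockout and at or near 0 in wild-type.

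Other basic helix-loop-helix zipper factors of the extended network were mixed. MGA, which binds MAX and forms part of a Polycomb complex, had 40.1 and 44.2 CPM in the libraries labelled knockout, against 25.8 and 30.3 CPM in wild-type (log2 fold change 0.59, SE 0.11, edgeR adjusted p = 6.61e-06). MLXIP, or MondoA, a glucose-responsive partner of MLX, had 144.9 and 139.6 CPM in the libraries labelled knockout, against 214.2 and 195.0 CPM in wild-type (-0.52, SE 0.07, edgeR adjusted p = 1.51e-09). MLX stood at 106.7 and 102.4 CPM in the libraries labelled knockout, against 128.4 and 113.7 CPM in wild-type (-0.21, SE 0.08, edgeR adjusted p = 0.0125). The MLX call was lost in edgeR without wild-type replicate 1 (log2 fold change -0.10, adjusted p = 0.156), without replicate 1 labelled knockout (-0.24, adjusted p = 0.107), without replicate 2 labelled knockout (-0.18, adjusted p = 0.253) and with no expression filter (-0.21, adjusted p = 0.0839). It was also lost in the DESeq2 Wald test (-0.20, adjusted p = 0.0666). MLXIPL, or ChREBP, had 12 and 9 reads in the libraries labelled knockout against 5 and 3 in wild-type and was too low to test.

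Both listed targets of MLXIP and MLX were higher in the libraries where these factors were lower. TXNIP, a thioredoxin-binding protein that limits glucose uptake, had 568.1 and 565.4 CPM in the libraries labelled knockout, against 116.0 and 115.4 CPM in wild-type (log2 fold change 2.29, SE 0.07, edgeR adjusted p = 1.44e-42). ARRDC4, a related arrestin, was at 29.3 and 31.2 CPM in the libraries labelled knockout, against 8.67 and 11.9 CPM in wild-type (1.56, SE 0.15, edgeR adjusted p = 4.48e-15). Around TXNIP on chromosome 1, 21 of the 34 other genes tested within 2 Mb were also higher and 2 lower, with a median of 0.57, beside 33.7% higher and 32.3% lower among all tested genes. This window was not among the planned results and was taken for TXNIP alone, not for ARRDC4.

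As a wider frame, chosen after the table was seen, its annotation places 101 genes in the bHLH transcription factor family, 8 of the 9 network genes among them. Of the 48 other bHLH genes tested, 17 were higher and 19 lower (35.4% and 39.6%), with a median log2 fold change of -0.05, beside 33.7% higher and 32.3% lower among all tested genes and their median of 0.02. By the pattern over the 4 libraries (Euclidean distance of gene-centred log2(CPM + 1)), the protein-coding genes most like MYC were LARP1, an RNA-binding regulator of ribosomal protein mRNAs, at a distance of 0.013, RPL21, a ribosomal protein gene, at 0.014, and GPR107 at 0.025. These were taken from 12767 candidates over only 4 libraries, and RPL21 has many processed copies that can share its reads.

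Of the genes that MYC is known to activate, more were lower than higher in the libraries labelled knockout, where MYC itself was higher. The list of ribosome biogenesis genes had 36 tested members, 5 higher and 20 lower, and its median log2 fold change was -0.29. That is 13.9% higher and 55.6% lower, beside 33.7% higher and 32.3% lower among all tested genes. Without replicate 2 labelled knockout, 3 were higher and 15 lower. HSPE1, a mitochondrial chaperonin often listed with this group, had 22.4 and 17.5 CPM in the libraries labelled knockout, against 61.3 and 62.9 CPM in wild-type (log2 fold change -1.64, SE 0.11). PPAN, BOP1 and GRWD1, which act in assembly of the large ribosomal subunit, were at -1.38, -1.24 and -1.16. The PPAN row overlaps P2RY11 and the GRWD1 row KCNJ14, each on the same strand. HSPE1 overlaps HSPD1 and BOP1 overlaps SCX, each on the opposite strand. Reads in shared parts may have been lost, so the levels of these genes are uncertain. BOP1 had 207.7 and 212.4 CPM in the libraries labelled knockout, against 525.2 and 467.9 CPM in wild-type. NPM1, the nucleolar protein nucleophosmin, was the largest rise of the list at 1.10, with 1151 and 1159 CPM in the libraries labelled knockout against 484.7 and 592.7 CPM in wild-type, and it has many processed copies among which reads can be split. NCL, or nucleolin, stood at 424.3 and 428.1 CPM in the libraries labelled knockout, against 397.9 and 462.5 CPM in wild-type, and did not pass the test (log2 fold change -0.01). NPM1 and NCL were named after their values were seen.

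The list of nucleotide, folate and polyamine genes had 25 tested members, 4 higher and 18 lower (16.0% and 72.0%, beside 33.7% and 32.3% of all tested genes), and a median of -0.58. ADSL, a purine synthesis enzyme, had 5.46 and 5.93 CPM in the libraries labelled knockout, against 14.3 and 15.2 CPM in wild-type (-1.37, SE 0.19). The ADSL row overlaps SGSM3 on the same strand, where reads may have been lost, so its level is uncertain. RRM2 and RRM1, the subunits of ribonucleotide reductase, were at -1.08 and -0.92, and NME1, a nucleoside diphosphate kinase whose row overlaps the NME1-NME2 read-through gene, at -0.95. The 4 higher genes were CAD, GMPS, SHMT2 and MTHFD2, named after their values were seen. CAD, a pyrimidine synthesis enzyme and a classic MYC target, had 392.1 and 363.8 CPM in the libraries labelled knockout, against 245.1 and 225.4 CPM in wild-type (0.68, SE 0.07). SHMT2, the mitochondrial serine hydroxymethyltransferase, had 947.0 and 942.9 CPM in the libraries labelled knockout, against 548.7 and 506.0 CPM in wild-type. ODC1, the rate-limiting enzyme of polyamine synthesis, also named afterwards, was lower, with 354.9 and 361.1 CPM in the libraries labelled knockout against 519.8 and 475.2 CPM in wild-type.

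Among 20 growth and metabolic targets, 5 were higher and 11 lower (beside 33.7% and 32.3% of all tested genes), with a median of -0.39. CCND2, which encodes cyclin D2, rose by a log2 fold change of 2.30 (SE 0.14), with 44.5 and 43.2 CPM in the libraries labelled knockout against 8.44 and 9.30 CPM in wild-type. BCAT1, a branched-chain amino acid transaminase, was at 1.16. The transferrin receptor gene TFRC fell by 1.57 on the log2 scale (SE 0.08) and TERT, the telomerase reverse transcriptase, fell by 1.09 (SE 0.13), with 18.4 and 17.8 CPM in the libraries labelled knockout against 37.9 and 39.0 CPM in wild-type.

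Genes that MYC is known to repress were higher for 8 and lower for 5 of 15 tested, with a median of 0.19 and a mean of 0.92. The lower share of 33.3% lies near the 32.3% of all tested genes and the higher share of 53.3% above their 33.7%. CEBPA, a myeloid transcription factor that is also among the myeloid markers, had 137.2 and 138.8 CPM in the libraries labelled knockout, against 24.5 and 21.7 CPM in wild-type (2.58, SE 0.09). CCND1, encoding cyclin D1, was at 2.65, with 21.6 and 27.0 CPM in the libraries labelled knockout against 3.67 and 4.08 CPM in wild-type. CDKN2B, the cell cycle inhibitor p15, had 23 and 37 reads in the libraries labelled knockout, against 2 and 0 in wild-type, a ratio of summed reads of 33.9 with an exact conditional 95% interval of 8.99 to 286.5, and its row overlaps the oppositely oriented CDKN2B-AS1. THBS1, or thrombospondin 1, was at 3.11 (SE 0.66) from 18 and 22 reads in the libraries labelled knockout against 3 and 2 in wild-type. All genes named in these 4 target lists, other than NCL, passed the edgeR test at an adjusted p under 0.05.

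**Figure D5:**
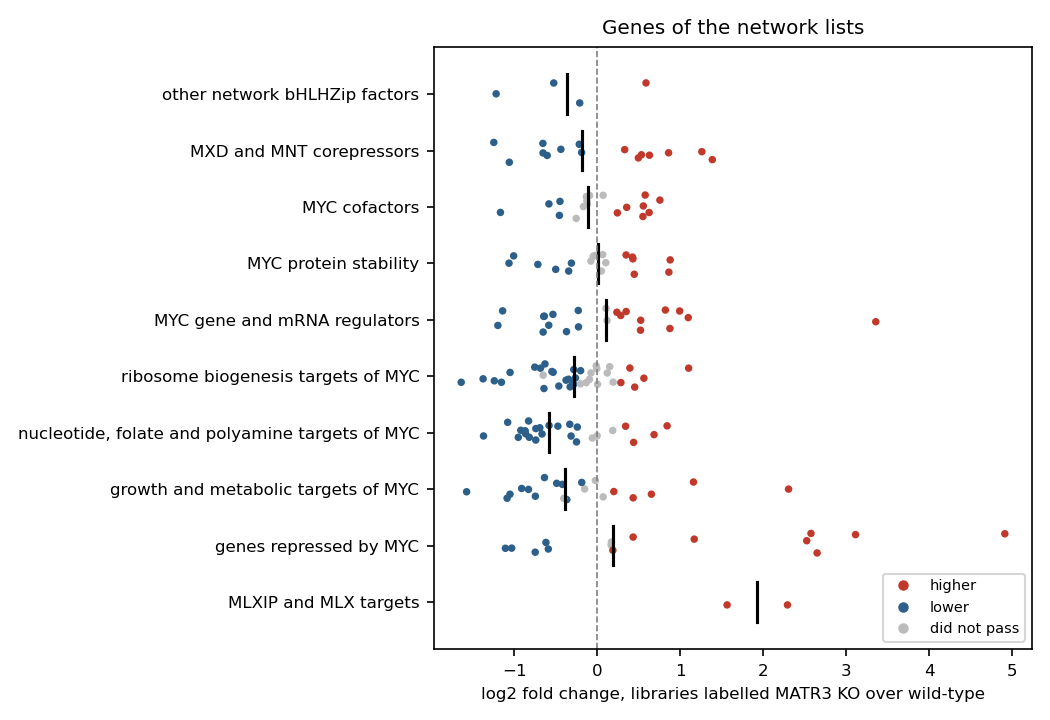
Each point is 1 tested gene of a list, placed by the log2 fold change of the libraries labelled MATR3 knockout over wild-type and coloured by its call in edgeR at an adjusted p under 0.05, and the black bar is the median of the list. The medians of the 3 lists of activated targets lie at -0.29, -0.58 and -0.39, left of 0, as do those of the other network factors (-0.37), corepressors (-0.19) and cofactors (-0.11), and every list of more than 2 genes spreads to both sides of 0.

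Genes for the partners of the network proteins went both ways. Of 15 corepressor genes of the MXD proteins and MNT, 7 were higher and 8 lower (46.7% and 53.3%, beside 33.7% and 32.3% of all tested genes), and the median (-0.19) and the mean (0.03) differed in sign. The median was -0.09 without wild-type replicate 1 and -0.07 without wild-type replicate 2. HDAC1, a histone deacetylase, was lower, with 227.7 and 220.6 CPM in the libraries labelled knockout against 530.5 and 533.3 CPM in wild-type (log2 fold change -1.25, SE 0.07), and SAP30, a SIN3 complex subunit, was at -1.06. ARID4B and ARID4A, subunits of the same complex, were higher at 1.39 and 1.26. HDAC2, the close relative of HDAC1, named after its values were seen, was higher at 0.86.

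Of 18 MYC cofactor genes, 7 were higher and 4 lower (38.9% and 22.2%, beside 33.7% and 32.3% of all tested genes), and here also the median (-0.11) and the mean (0.01) differed in sign. The count became 7 higher and 8 lower with scaling by library size alone and also without wild-type replicate 2, where the median was -0.21. Without wild-type replicate 1 the median was 0.008, and without replicate 2 labelled knockout it was -0.07. KAT2A, or GCN5, a histone acetyltransferase, was lower, with 47.5 and 48.9 CPM in the libraries labelled knockout against 112.8 and 103.5 CPM in wild-type (-1.17, SE 0.08), and PAF1, an elongation factor subunit, was at -0.58. BPTF, a chromatin remodeller subunit, was higher at 0.75 and the acetyltransferase gene EP300 at 0.62.

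Genes acting on the stability of MYC protein were higher for 6 and lower for 6 of 18, which is 33.3% each and near the 33.7% and 32.3% of all tested genes. Their median of 0.01 took either sign under other scalings and ran from -0.03 to 0.02 when each library was left out, lowest without replicate 2 and highest without replicate 1 labelled knockout. TRIM32, a ubiquitin ligase, was lower at -1.01. USP28, a deubiquitinase of MYC, was at 0.88 and CIP2A, an inhibitor of protein phosphatase 2A, at 0.86. FBXW7, the ubiquitin ligase subunit that marks MYC for degradation, named after its values were seen, did not pass the test, with 15.6 and 18.6 CPM in the libraries labelled knockout against 11.5 and 20.5 CPM in wild-type.

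Regulators of the MYC gene and its mRNA were higher for 10 and lower for 10 of 22 (45.5% each, beside 33.7% and 32.3% of all tested genes), with a median of 0.11. The median was 0.03 without wild-type replicate 2, 0.19 without wild-type replicate 1 and 0.04 without replicate 1 labelled knockout. IGF2BP2, a protein that binds and stabilises mRNAs, rose most, with 24.3 and 26.2 CPM in the libraries labelled knockout against 2.70 and 2.20 CPM in wild-type (3.36, SE 0.20), and its paralogue IGF2BP3 was at 1.10. The T cell transcription factor genes TCF7 and TAL1 were lower at -1.20 and -1.14, and TCF7 had 353.6 and 356.0 CPM in the libraries labelled knockout against 832.1 and 796.0 CPM in wild-type. All genes named in these 4 partner and regulator lists, FBXW7 apart, passed the edgeR test at an adjusted p under 0.05.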

How the data were processed

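RNA sequencing libraries of Jurkat cells were analysed, 2 labelled MATR3 knockout and 2 wild-type, grouped by the genotype label. The authors deposited 1 table of raw read counts per gene, without normalization. All 4 count columns were assigned by the short names in the sample descriptions. The submitters' processing notes list HISAT2 2.0.5, featureCounts 1.5.0-p3 and CASAVA 1.8 without saying what each did. The genome build and the strand setting are not stated in the sources used here, so reads of overlapping genes cannot be told apart by strand. Rows of several genes named from the lists, TCF7 and CCND1 among them, overlap genes with reads without this being given beside each. Although the samples are labelled as mouse, the gene identifiers and the cell line are human. Symbols, coordinates and lengths (another deposited column, in bases) came from the deposited table, and no sequence is shown because no human sequences were used here.

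Counts were fitted with edgeR 4.0.16 in R 4.3.3 (TMM scaling, the default filter with 10 counts minimum and 15 in total, two-sided quasi-likelihood test, Benjamini-Hochberg adjustment over 15294 genes, threshold 0.05, no covariate). SE is the absolute log2 fold change divided by the square root of the F statistic. CPM and RPKM use TMM-scaled library sizes. With 2 libraries a group and 15008554 to 17477643 counts per library, genes with few reads are imprecise. The members and the gene lists were chosen with earlier results of these data known.

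The named genes are all network members, all related factors and MLX targets, up to 4 of the most changed called genes of each other list, the called genes within 2 Mb of MYC and the 3 genes nearest to MYC in pattern. Others, apart from cell type markers, overlapping genes, MATR3 and FAM84B, are stated to be named after their values were seen. FAM84B, the only other tested protein-coding gene in the window around MYC, is outside this rule. Some genes that the rule names are not reported here. Alternatives were DESeq2 1.42.0, limma 3.58.1 voom, 3 other scalings, 2 other filters, protein-coding genes only, a threshold of 0.01, a replicate block, windows of 1 and 5 Mb and leaving out each library.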

Additional observations from a re-analysis of the deposited data

How the results depend on the processing

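MYC, MYCN, MAX, MXD1 and MXI1 kept their direction and their calls under all 14 alternatives, with log2 fold changes from 0.59 to 0.68 for MYC, -1.44 to -1.24 for MYCN, -0.53 to -0.41 for MAX, 1.67 to 1.88 for MXD1 and 1.09 to 1.21 for MXI1. MXD3 (0.08 to 0.17) and MNT (0.15 to 0.27) stayed above 0 and passed under none. MXD4 (-0.30 to -0.17) lost its call in 2 of 14 and PVT1 (0.40 to 0.76) in 3 of the 13 that tested it. Left-out libraries gave 5 to 7 called members, 8018 to 10263 called genes, 116 to 147 called genes over the pathway lists (140 with all libraries) and 5 called genes near MYC. Where 1 library was left in a group, it was assumed to vary like the others. Around MYC, the 6 calls became 1 with protein-coding genes only, which tests 2 genes, 3 (all higher, of 3) in a window of 1 Mb and 27 (15 higher, 12 lower of 36) in a window of 5 Mb. With no expression filter the median of all genes was 0.15. Levels set within a library do not depend on scaling. The labels give replicates only a number and do not say whether same-numbered libraries were handled together. Deviations of same-numbered libraries from their group means correlated at 0.0236, a single value that cannot settle this. A replicate block on that number gave 7 called members, 10072 called genes, 142 over the lists and 6 near MYC.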
